A study of Mus musculus with 11 samples.

Results

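Collagen chain genes were taken as the rows of the deposited table whose symbol is Col, a type number, the letter a and a chain number. They numbered 36 of 14700 genes, with 9 fibrillar chains, 6 basement membrane chains of type IV and 21 chains of other types. RNA had been sequenced from whole lungs of C57BL/6 mice aged 8 weeks, 3 days after intratracheal instillation. The saline group had 6 libraries and received saline, and the bleomycin group had 5 libraries and received bleomycin at 3 U/kg, each in 50 µL. Bleomycin is a DNA-damaging glycopeptide used to injure the mouse lung, and the labels name no transgene or deletion in either group. The comparison addresses which collagen transcripts differ early after the injury.

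Collagens are trimers of chains that share a repeat of glycine followed by a further pair of residues. Fibrillar collagens form the tensile fibrils of the interstitium, and their build-up by fibroblasts is the hallmark of lung fibrosis. Type IV chains assemble into the sheet-like network of basement membranes, which in the alveolus lies between epithelium and capillary. Col4a1 and Col4a2 form the trimer of nearly all basement membranes, whereas Col4a3, Col4a4 and Col4a5 form a second trimer that is found in the kidney glomerulus and the alveolus.

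Libraries held 13226339 to 19009284 counts. Levels are given as CPM (the count scaled to a common library size) with TMM factors, which are set per library from the bulk of its genes, divided by the length of the longest annotated transcript, in CPM per kb. Epithelial lung markers were abundant in every library, with the surfactant gene Sftpc at a mean of 18920 in saline and 20370 CPM per kb in bleomycin. Saline 2 and 3 resembled each other, as did saline 1 and 4. The leukocyte gene Ptprc stood at 89.2 and 77.5 CPM per kb in saline 2 and 3, against 24.97 to 55.0 in the other saline libraries. The length of each gene's longest annotated transcript, averaged with counts as weights, was lowest in saline 1, 4 and 5. It was 2938, 2867 and 3091 bases there, against 3383 to 3681 in the other libraries, and reflects which genes were abundant, not a measured RNA length. The part of either feature in the results was not tested, and the groups were also compared without saline 2 and 3 and without saline 1 and 4.

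After bleomycin, 3 of the 6 type IV chains and 3 chains of other types were higher, and no fibrillar chain passed the test used. Of 34 chains with enough counts to be tested, 6 rose and 0 fell at an adjusted p under 0.05 by edgeR's quasi-likelihood test. Among all 14478 genes tested, 4.63% rose and 5.7% fell. Under total-count scaling 6.17% rose and 2.62% fell, and the collagen calls were 7 and 0. The 6 were the type IV chains Col4a1, Col4a2 and Col4a3, the anchoring fibril chain Col7a1, the transmembrane chain Col13a1 and Col26a1. No fibrillar chain passed, and at an unadjusted p under 0.05 there were 11 of the 34 chains, 2 of them fibrillar, beside 4344 (30.0%) of the 14478 genes. The median log2 fold change (bleomycin over saline) was 0.47 over the 34 chains and -0.04 over all genes. By class it was 1.13 for type IV, 0.68 for the other types and -0.47 for the fibrillar chains. For 4 chains, Col4a1, Col4a2, Col4a3 and Col26a1, no bleomycin library was as low as any saline library, a separation found for 3.99% of all genes. The opposite separation was found for 0 chains and for 4.41% of all genes. DESeq2 called 8 rises and 1 fall, while 8.63% of all genes rose and 11.2% fell by that tool. Without saline 6 or without bleomycin 1 there were 7 rises, at 6.81% and 4.67% of all genes. Without bleomycin 2, 4 or 5 there were 3, at 1.82%, 1.95% and 1.93% of all genes. With a replicate block there were also 3, at 1.84%. In whole tissue, fewer cells of a type and less RNA per cell cannot be told apart.

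**Figure D1:**
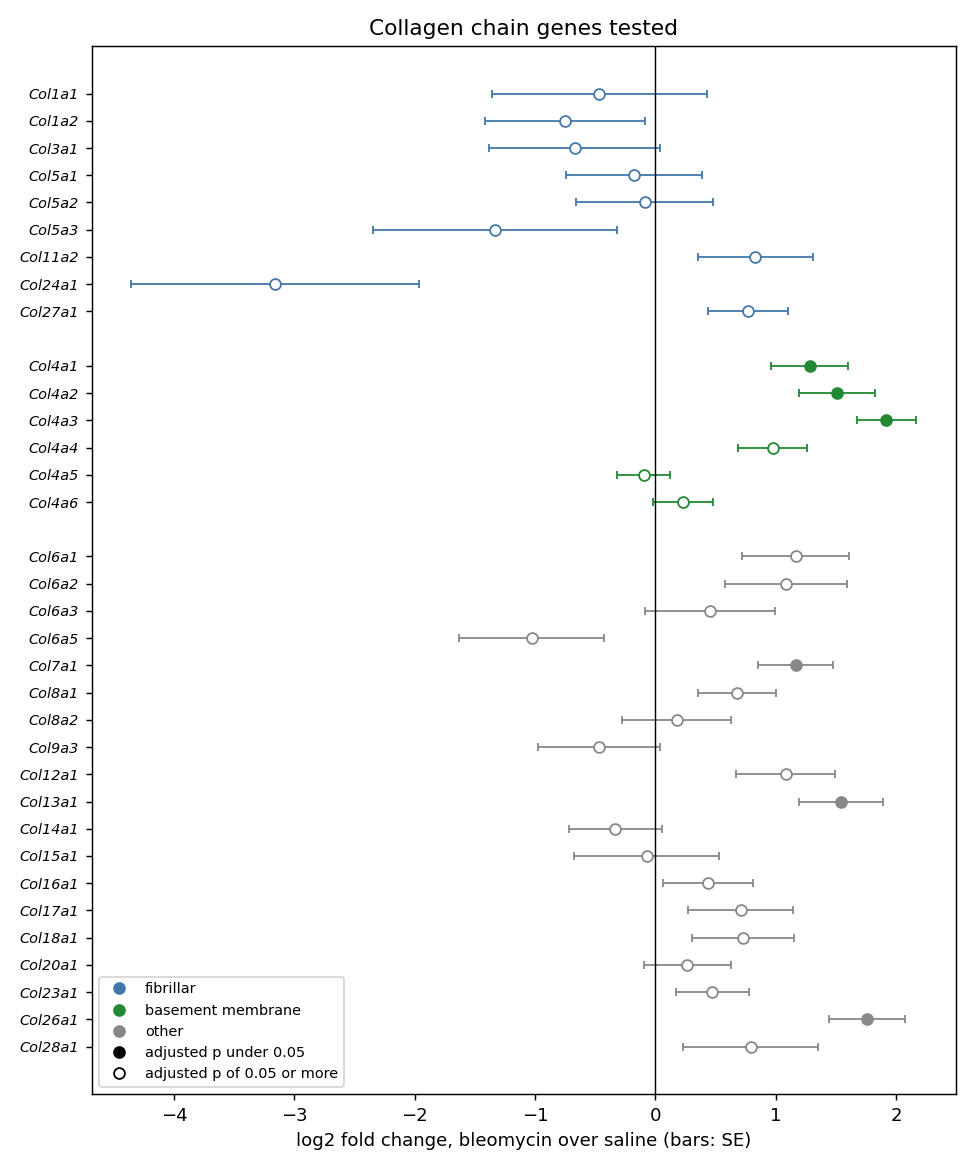
Log2 fold change of bleomycin over saline for the 34 collagen chain genes tested, by class, with bars of 1 SE from the edgeR fit over 6 saline and 5 bleomycin libraries. Filled points passed an adjusted p of 0.05. They are Col4a1, Col4a2, Col4a3, Col7a1, Col13a1 and Col26a1, all to the right of 0.

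Of the 6 chains that rose, 3 were of type IV, and the genes of the major type IV trimer are arranged head to head. In the RefSeq promoter windows (GRCm38.p6, 250 bases before to 50 after the transcript start), the starts of Col4a1 and Col4a2 lay 21 bases apart on opposite strands, with the windows sharing 78 bases. The windows are shown because both chains rose, and the shared stretch is in capitals, on the minus strand at chr8:11312777-11313076 for Col4a1 and on the plus strand at chr8:11312555-11312854 for Col4a2. The window of Col4a4 (minus strand, chr1:82586800-82587099) is shown, in lower case throughout, as that of a partner of Col4a3. No window was found for Col4a3 itself, so its arrangement relative to Col4a4 was not examined.
Col4a1: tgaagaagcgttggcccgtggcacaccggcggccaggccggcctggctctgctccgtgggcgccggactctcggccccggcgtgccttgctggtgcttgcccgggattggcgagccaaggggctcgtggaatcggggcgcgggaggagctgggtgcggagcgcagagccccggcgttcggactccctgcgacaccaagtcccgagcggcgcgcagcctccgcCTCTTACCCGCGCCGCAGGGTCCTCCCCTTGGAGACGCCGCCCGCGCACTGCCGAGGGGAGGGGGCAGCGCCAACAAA
Col4a2: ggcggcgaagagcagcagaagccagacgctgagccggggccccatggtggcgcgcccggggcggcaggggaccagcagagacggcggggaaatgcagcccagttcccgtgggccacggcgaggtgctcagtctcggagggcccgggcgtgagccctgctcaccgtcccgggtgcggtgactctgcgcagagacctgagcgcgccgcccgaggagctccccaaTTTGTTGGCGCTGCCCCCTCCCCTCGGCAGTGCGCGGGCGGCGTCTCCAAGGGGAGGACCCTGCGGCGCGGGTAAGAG
Col4a4: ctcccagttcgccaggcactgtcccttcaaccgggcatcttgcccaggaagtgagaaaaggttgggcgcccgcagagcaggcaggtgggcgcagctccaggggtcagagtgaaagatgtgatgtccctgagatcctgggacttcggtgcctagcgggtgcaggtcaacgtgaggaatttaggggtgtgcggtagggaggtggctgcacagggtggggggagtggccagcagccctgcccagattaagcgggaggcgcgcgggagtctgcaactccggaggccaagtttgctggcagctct

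Windows were found for 28 of the 36 chain genes, 30 windows in all. The GC box GGGCGG, searched on both strands, occurred in 19 of these 30, and in 35.7% of all 32851 windows of the same length. It was found 1 time in the Col4a1 window, 3 times in that of Col4a2 and 0 times in that of Col4a4. The stretch TATAAA was in 4 of the 30 windows (13.6% of all) and CCAAT in 10 (37.4% of all), again on both strands. The Col4a1 and Col4a2 windows each held CCAAT and neither held TATAAA. Where windows overlap, 1 motif is counted in both. These counts describe the letters in the windows only.

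Col4a1 (ENSMUSG00000031502) ranged from 21.8 to 60.4 CPM per kb in saline, with a median of 40.6. The bleomycin libraries 1 to 5 held 66, 97.9, 68.0, 153 and 114 CPM per kb. The lowest bleomycin library was above the highest saline library, saline 2. This is a log2 fold change of 1.28 ± 0.32 (SE, n = 6 and 5; adjusted p = 0.03 by edgeR), or 2.43-fold. The call was lost without saline 1 or without saline 4, and when bleomycin 2, 4 or 5 was removed (adjusted p at most 0.0748).

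Col4a2 (ENSMUSG00000031503), its trimer partner, ranged from 14.5 to 45.8 CPM per kb in saline, with a median of 34.5. Bleomycin 1 to 5 held 77.0, 92.9, 60.8, 120 and 97.2 CPM per kb, again all above every saline library. Bleomycin exceeded saline by a log2 fold change of 1.51 ± 0.31 (SE; adjusted p = 0.0151 by edgeR), or 2.85-fold. For both genes saline 1 and 4 were the lowest saline libraries and saline 2 and 3 the highest. This order was not particular to the pair, as Col6a1 had it too. The ratio of Col4a2 to Col4a1 lay between 0.623 and 1.03 in saline and between 0.785 and 1.17 in bleomycin, and the groups overlapped.

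Col4a3 (ENSMUSG00000079465), the chain of the alveolar and glomerular trimer that carries the Goodpasture autoantigen in humans, had the largest rise of the collagen genes tested. Saline 1 to 6 held 2.27, 2.04, 2.80, 2.08, 3.58 and 4.69 CPM per kb. Bleomycin 1 to 5 held 11.9, 11.2, 7.17, 10.4 and 14.4 CPM per kb. The groups were far apart, with the lowest bleomycin library, bleomycin 3, above the highest saline library, saline 6. On the log2 scale the change was 1.92 ± 0.25 (SE; adjusted p = 0.00218 by edgeR). Unlike Col4a1 and Col4a2, it was not raised in saline 2 and 3. The call was made in all 11 fits that left out 1 library (highest adjusted p = 0.00946), and in every other alternative fit run.

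Col4a4 and Col4a5, the partners of Col4a3 in that trimer, did not follow it to the same extent. Col4a4 ranged from 3.58 to 12.9 CPM per kb in saline (median 5.73), and bleomycin 1 to 5 held 16.3, 12.99, 10.1, 9.57 and 14.4. Saline 6 lay within the bleomycin range and the other 5 saline libraries lay below it. The log2 fold change of Col4a4 was 0.98 ± 0.29 (SE; adjusted p = 0.0505 by edgeR), which did not pass. It passed in 7 of the 21 alternative fits, among them median-ratio and total-count scaling, DESeq2 and limma on all libraries (adjusted p from 0.0124 to 0.0488), and without saline 6 (log2 fold change 1.30, adjusted p = 0.00374). Col4a5 ranged from 7.26 to 12.2 CPM per kb in saline (median 11.7), and bleomycin 1 to 5 held 5.51, 10.6, 10.1, 9.78 and 12.8, so the groups overlapped throughout. Its log2 fold change was -0.10 ± 0.22 (SE; adjusted p = 0.794 by edgeR), with a positive sign under total-count scaling. Col4a6, which pairs with Col4a5 in another trimer of smooth muscle and some epithelia, ranged from 1.67 to 3.82 CPM per kb in saline and from 2.58 to 3.75 in bleomycin (log2 fold change 0.23 ± 0.25; adjusted p = 0.557 by edgeR). Col4a5 and Col4a6 also lie head to head, with transcript starts 1343 bases apart on the X chromosome.

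**Figure D2:**
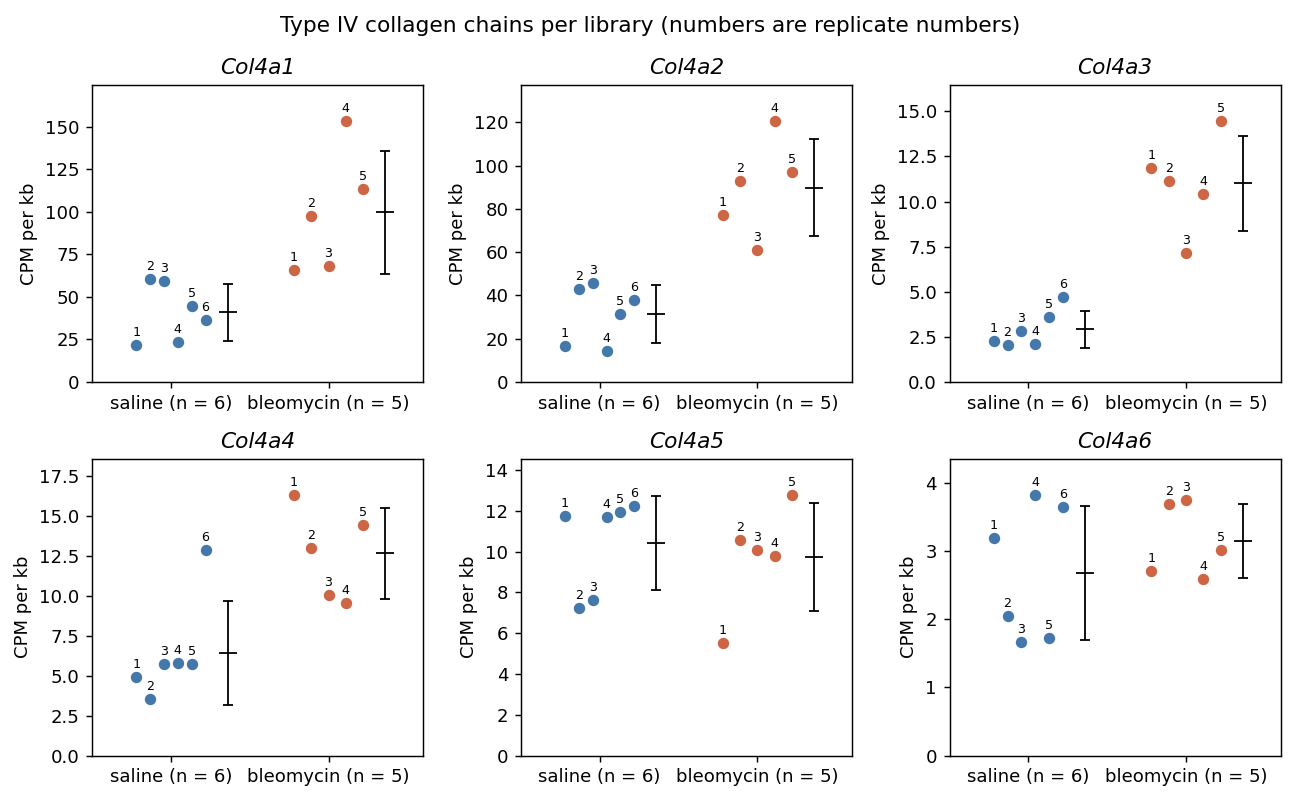
Level of each type IV chain gene in CPM per kb (linear axis from 0) in each of 6 saline and 5 bleomycin libraries, marked by replicate number, with mean and SD at the right of each group. All bleomycin points are above all saline points for Col4a1, Col4a2 and Col4a3, while the groups overlap for Col4a4, Col4a5 and Col4a6.

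By level, Col4a1 and Col4a2 led the class in every library, at means of 41.0 ± 16.9 and 31.5 ± 13.3 CPM per kb in saline (SD, n = 6) and 99.8 ± 36.1 and 89.6 ± 22.4 in bleomycin (SD, n = 5). In saline the next was Col4a5 at 10.4 ± 2.32, then Col4a4 at 6.45 ± 3.27, Col4a3 at 2.91 ± 1.05 and Col4a6 at 2.68 ± 0.98 CPM per kb, the last pair within their spread. In bleomycin Col4a4 stood at 12.7 ± 2.87, Col4a3 at 11.0 ± 2.63 and Col4a5 at 9.74 ± 2.64 CPM per kb, within the spread of each other, and Col4a6 at 3.15 ± 0.54 remained the lowest.

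Ratios of chains within a library do not depend on how libraries are scaled. Of 15 ratios compared, 4 differed between the groups. The test was an exact two-sided permutation over all assignments of the libraries to groups, Benjamini-Hochberg adjusted over the 15. The ratios came from known trimers and shared networks and were chosen with earlier results of these data known. All 4 have Col4a3 or Col4a1, both called higher above, as denominator, so they are not separate from those calls. The ratio of Col4a5 to Col4a3 was 5.17, 3.56, 2.73, 5.62, 3.33 and 2.61 in saline 1 to 6. It was 0.464, 0.946, 1.41, 0.939 and 0.884 in bleomycin 1 to 5, below every saline value. The difference in mean log2 ratio was -2.07 (exact permutation p = 0.00216, the smallest this design can give; adjusted p = 0.0325). The ratio of Col4a4 to Col4a3 was 2.17, 1.75, 2.05, 2.78, 1.604 and 2.75 in saline 1 to 6, against 1.37, 1.16, 1.41, 0.918 and 0.9995 in bleomycin 1 to 5. These groups did not overlap either, and the log2 difference was -0.89 (exact permutation p = 0.00433, adjusted p = 0.0325). The longest transcripts of Col4a3, Col4a4 and Col4a5 had GC contents of 50.4%, 51.1% and 51.5%.

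**Figure D3:**
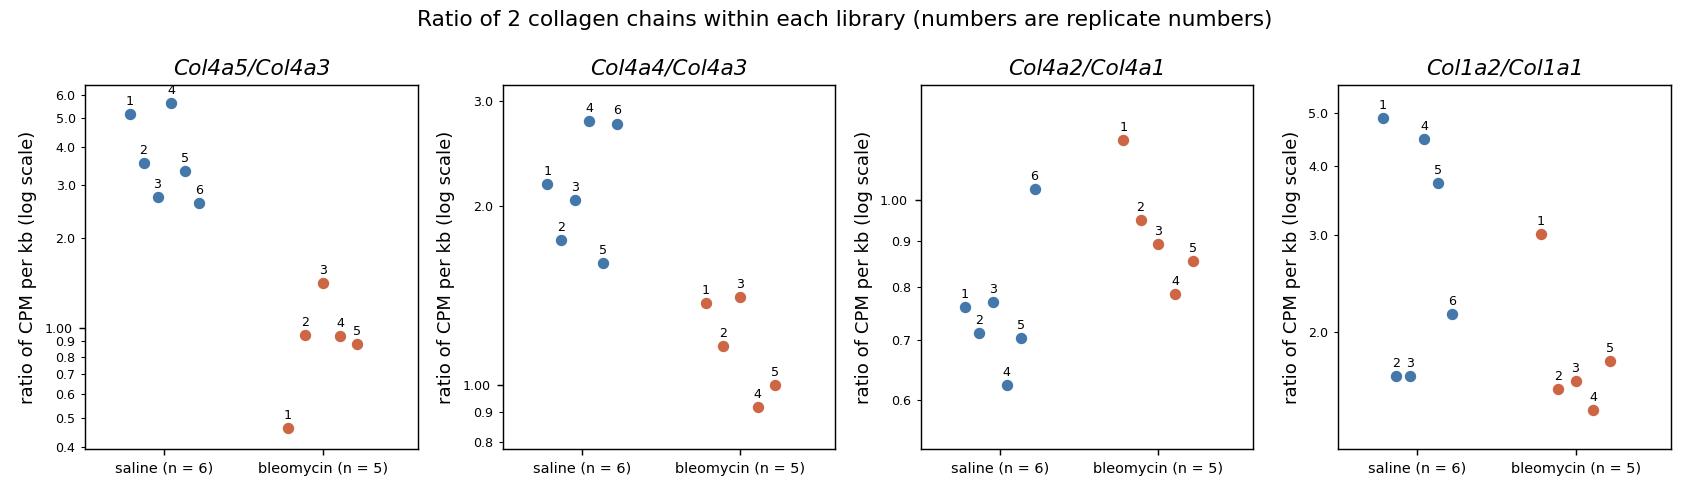
Ratio of 2 chains in CPM per kb within each library, on a log axis, for 6 saline and 5 bleomycin libraries marked by replicate number. Bleomycin lies below saline without overlap for Col4a5/Col4a3 and Col4a4/Col4a3, the groups overlap for Col4a2/Col4a1, and Col1a2/Col1a1 is highest in saline 1, 4 and 5.

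The ratio of Col4a3 to Col4a1 overlapped between groups, from 0.0338 to 0.128 in saline and from 0.068 to 0.180 in bleomycin (log2 difference 0.63, exact permutation p = 0.143, adjusted p = 0.214). The other ratios past the threshold set the multiplexins, proteoglycan-like collagens of the basement membrane zone, against Col4a1. Col15a1 to Col4a1 ran from 0.0342 to 0.124 in saline and was 0.0042, 0.0196, 0.039, 0.0336 and 0.0369 in bleomycin 1 to 5 (log2 difference -1.65, exact permutation p = 0.00866, adjusted p = 0.0325). Col18a1, whose product is the source of endostatin, stood to Col4a1 at 0.0971 to 0.135 in saline and at 0.0259, 0.0886, 0.118, 0.0887 and 0.0759 in bleomycin (log2 difference -0.75, exact permutation p = 0.00866, adjusted p = 0.0325). Both were lowest in bleomycin 1. Without that library the log2 differences were -1.07 and -0.39, and neither passed (exact permutation, adjusted p = 0.107 for both).

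Markers of several cell types differed between the groups as well. Summed over 8 alveolar type 1 cell markers, levels ran from 534.7 to 1483 CPM per kb in saline and 1567 to 2133 in bleomycin. The sums did not overlap, and 3 of the 8 markers rose, among them Ager at 2.83-fold. Ager had the highest level of the 8 in every library, from 228 to 634 in saline and 910 to 1245 in bleomycin. Hopx, Rtkn2, Pdpn, Clic5 and Cldn18 were not called, and their groups overlapped. The sum was not computed without Ager, so the separation of the sums was not shown to hold for the rest of the list. Hopx, the next highest in saline 5, was at 317 CPM per kb there, above bleomycin 2 to 5 at 127 to 290 and below bleomycin 1 at 560. Among the called markers, Aqp5 did not overlap, at 57.9 to 152 in saline and 181.5 to 284 in bleomycin, while Akap5 overlapped. Type 1 cells are the flat epithelium that rests on the alveolar basement membrane. For 8 endothelial markers the sums were 229.5 to 773.9 and 683.6 to 815.7 CPM per kb, with 2 rises, Vwf and Gpihbp1. Rises were also called for 3 of 8 fibroblast markers (Pdgfra, Npnt and Wnt2, at 1.81-, 2.24- and 2.08-fold), 2 of 5 type 2 cell markers (Sftpb and Abca3, at 2.42- and 2.22-fold) and 1 of 5 pericyte markers (Notch3, at 2.26-fold). The fibroblast markers Ces1d, Dpt and Scara5 had negative log2 fold changes, at -0.35, -0.15 and -0.43, and Tcf21 and Pi16 positive ones. The pericyte marker Kcnj8 was at -0.34, and none of these passed. Of 4 leukocyte markers, Ptprc fell, from a mean of 55.6 to 16.2 CPM per kb. Among all genes tested, 4.63% rose and 5.7% fell. None of the 8 type 1 or the 8 endothelial markers was at 0 in all libraries, and the part of any of these cell types in the collagen changes was not tested.

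The fibrillar chains showed no call in either direction, and their levels were set apart mainly by saline 2 and 3. Col3a1, the homotrimeric chain that forms fibrils with type I, was the most abundant collagen transcript per length in the average over all libraries. Saline 1 to 6 held 49.5, 377, 239, 56.1, 61.3 and 48.7 CPM per kb of Col3a1, and bleomycin 1 to 5 held 11.9, 61.4, 69.0, 179 and 115. Bleomycin 1 lay below every saline library and the other 4 between the low and the high saline libraries. This gave a log2 fold change of -0.67 ± 0.71 (SE; adjusted p = 0.549 by edgeR).

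Col1a1, the main chain of type I collagen, stood at 7.98, 156, 107, 9.10, 11.9 and 18.2 CPM per kb in saline 1 to 6. In bleomycin 1 to 5 it stood at 3.45, 31.4, 30.1, 84.0 and 38.1. Bleomycin 2 to 5 therefore lay above saline 1, 4, 5 and 6 and below saline 2 and 3, and bleomycin 1 lay below all of them. Its log2 fold change was -0.47 ± 0.89 (SE; adjusted p = 0.753 by edgeR), and 1.66 without saline 2 and 3 (adjusted p = 0.0805). Col1a2, the other type I chain, ranged from 38.9 to 260 CPM per kb in saline (median 42.6) and from 10.4 to 121 in bleomycin (log2 fold change -0.75 ± 0.66; adjusted p = 0.466 by edgeR).

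Type V chains, which start fibrils and limit their width, followed the same libraries. Col5a2 ranged from 7.13 to 42.8 CPM per kb in saline and from 4.94 to 30.7 in bleomycin, and Col5a1 from 2.34 to 17.7 and from 3.44 to 10.3. Col5a3 stood at 8.51 and 7.26 CPM per kb in saline 2 and 3, between 0.109 and 0.767 in the other saline libraries and between 0.567 and 1.65 in bleomycin. Col24a1, a minor fibrillar chain, had 217 and 137 counts in the same pair of saline libraries, while the other 9 libraries had at most 11. Its log2 fold change of -3.16 ± 1.20 (SE) did not pass (adjusted p = 0.105 by edgeR), whereas DESeq2 called it. In all, 7 of the 9 fibrillar chains had their highest level in saline 2 or 3, against 0 of 6 type IV chains and 3 of 21 others. The cartilage-type chain Col11a2 and Col27a1 were the fibrillar chains with positive log2 fold changes, 0.83 and 0.77 (adjusted p = 0.259 and 0.142 by edgeR).

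**Figure D4:**
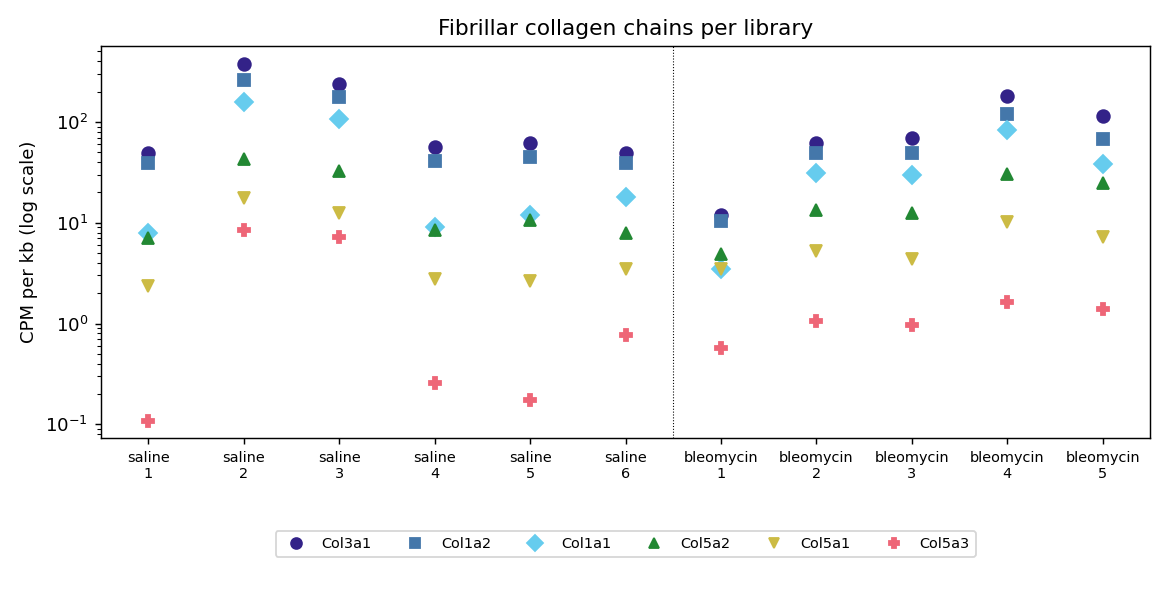
Levels of 6 fibrillar chain genes in CPM per kb (log axis) in each saline and bleomycin library. All 6 genes are highest in saline 2 and next highest in saline 3, and Col1a1, Col1a2, Col3a1 and Col5a2 are lowest in bleomycin 1.

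Summed over the 9 fibrillar chains, the level reached 867 CPM per kb in saline 2 and 579 in saline 3, while the remaining saline libraries held 108 to 132. Bleomycin 1 held 37.0, and bleomycin 2 to 5 held 166, 170, 431 and 258 CPM per kb. For type IV the sums were 60.6 to 123 in saline and 160 to 306 in bleomycin, without overlap. The 8 fibroblast markers had their lowest summed level in saline 2, at 283 CPM per kb, against a saline median of 836, and most of that sum was Ces1d. The other 7 summed to 119 and 122 CPM per kb in saline 2 and 3 and to 150.2 to 256 in the other saline libraries, while Pdgfra was at 18.98 and 18.65 in that pair, within the saline range of 12.8 to 21.6. The 4 leukocyte markers had their highest summed level in saline 2, at 342 against a saline median of 78.8. Other cell types differed there too. The 4 mesothelial markers had their highest summed level in saline 3, at 478.2 against a saline median of 117.1. Among them, Wt1 was at 16.03 and 26.87 CPM per kb in saline 2 and 3, against 0.03935 to 1.784 in other saline libraries. Summed smooth muscle, pericyte, endothelial and alveolar type 1 and 2 markers were lowest of all libraries in saline 2. The part of any of these cell types in the fibrillar levels was not tested.

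With saline 2 and 3 left out, 13 of 34 chains rose and 0 fell, while 9.22% of all genes rose in that fit. The 7 further chains were the fibrillar Col5a1, Col5a3 and Col11a2, the beaded filament chains Col6a1 and Col6a2, and the fibril-associated chains Col12a1 and Col16a1, at 2.08- to 3.53-fold. All 8 fibrillar chains tested there had positive log2 fold changes, with a median of 1.07. Col1a1, Col1a2 and Col3a1 still did not pass (adjusted p = 0.0805, 0.429 and 0.362 by edgeR). With saline 1 and 4 left out instead, 3 chains rose, Col4a2, Col4a3 and Col26a1, while 1.97% of all genes rose, and the fibrillar median was -0.94. The direction of the fibrillar chains as a class thus depended on which saline libraries were compared. It depended on the method too, as with limma on all libraries the median was 0.07, with 5 chains positive and 4 negative. With the replicate block the fibrillar median was 0.003.

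The ratio of Col1a2 to Col1a1 also differed among libraries of one group. It was 4.88, 1.66, 1.66, 4.49, 3.72 and 2.15 in saline 1 to 6, against 3.01, 1.57, 1.63, 1.44 and 1.77 in bleomycin 1 to 5. Col3a1 to Col1a1 followed, at 6.21, 6.17 and 5.15 in saline 1, 4 and 5, while every other library lay from 1.959 to 3.45. Saline 1, 4 and 5 were the libraries with the lowest average length of annotated transcripts, weighted by counts. The longest transcripts of Col1a1, Col1a2 and Col3a1 had GC contents of 58.9%, 55.7% and 52.5%. Between the groups neither ratio passed (exact permutation p = 0.115 and 0.128, adjusted p = 0.214 for both).

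Among the other types, 3 of the 19 chains tested rose. Col13a1 (ENSMUSG00000058806), a transmembrane collagen at cell-matrix adhesions, ranged from 2.90 to 7.75 CPM per kb in saline (median 4.23). Bleomycin 1 to 5 held 4.27, 16.5, 13.2, 19.3 and 16.7 CPM per kb. Bleomycin 1 lay within the saline range and the other 4 above it. The fitted log2 fold change was 1.55 ± 0.35 (SE; adjusted p = 0.0207 by edgeR). Removing bleomycin 2, 4 or 5 ended the call (adjusted p at most 0.0546).

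Col7a1 (ENSMUSG00000025650), which forms the anchoring fibrils beneath epithelial basement membranes, ranged from 0.339 to 1.27 CPM per kb in saline (median 0.56). Bleomycin 1 to 5 held 1.70, 1.72, 1.09, 1.55 and 1.40, with bleomycin 3 below saline 6. Col7a1 rose by a log2 fold change of 1.17 ± 0.31 (SE; adjusted p = 0.0357 by edgeR). Leaving out any of saline 1, 2, 4 or 5 or bleomycin 1, 2, 4 or 5 ended the call (adjusted p at most 0.0851).

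Col26a1 (ENSMUSG00000004415) was scarce, with 4 to 13 counts per saline library and 21, 40, 50, 25 and 37 counts in bleomycin 1 to 5. Its level ran from 0.11 to 0.297 CPM per kb in saline and from 0.569 to 1.08 in bleomycin, without overlap. Its log2 fold change was 1.76 ± 0.32 (SE; adjusted p = 0.00799 by edgeR), and it passed in all 11 fits that left out 1 library. Its saline counts lay around the filter minimum of 10, so Col26a1 entered the test through the bleomycin libraries, where it was higher. It was also called in the fit without a filter, but not with the replicate block. Fits with a correction for GC content, chosen after seeing the data, kept the calls of Col4a2, Col4a3 and Col26a1, with log2 fold changes of 1.16, 1.88 and 1.30. That correction ended those of Col4a1 (1.00, adjusted p = 0.0616), Col7a1 (0.78, adjusted p = 0.0851) and Col13a1 (1.12, adjusted p = 0.0899). In that fit 2.57% of all genes rose.

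**Figure D5:**
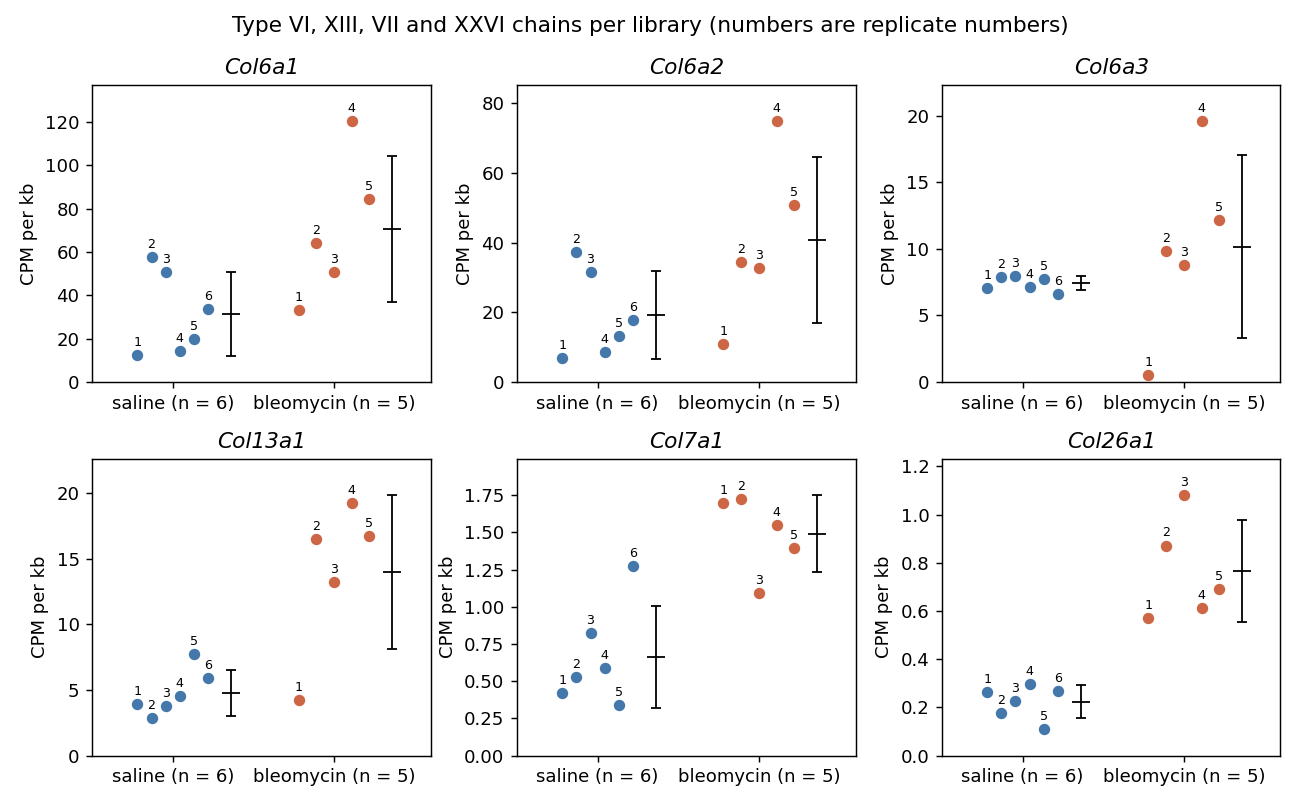
Levels of Col6a1, Col6a2, Col6a3, Col13a1, Col7a1 and Col26a1 in CPM per kb (linear axis from 0) in each library, marked by replicate number, with mean and SD of 6 saline and 5 bleomycin libraries at the right of each group. Bleomycin 1 has the lowest Col6a3 of all libraries and lies among the saline points for Col13a1, and the groups do not overlap for Col26a1.

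Type VI chains form beaded microfilaments near basement membranes. Col6a1, the most abundant chain of the other types, stood at 12.4, 57.5, 50.8, 14.2, 19.6 and 33.8 CPM per kb in saline 1 to 6. Bleomycin 1 to 5 held 33.0, 64.3, 50.7, 120 and 84.5, so that saline 2 and 3 lay among the lower bleomycin libraries. The log2 fold change was 1.17 ± 0.44 (SE; adjusted p = 0.106 by edgeR). Col6a2 had one of 1.08 ± 0.51 (SE; adjusted p = 0.173 by edgeR), and its ratio to Col6a1 lay between 0.525 and 0.677 in 10 of the 11 libraries and at 0.333 in bleomycin 1.

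Col6a3, the long chain of the type VI trimer, was nearly constant in saline, from 6.64 to 7.96 CPM per kb. Bleomycin 2 to 5 held 9.81, 8.79, 19.6 and 12.2 CPM per kb, all above saline, while bleomycin 1 held 0.515, from 69 counts against 986 to 2904 in the other 10 libraries. With all libraries the log2 fold change was 0.46 ± 0.54 (SE; adjusted p = 0.594 by edgeR), and without bleomycin 1 it was 0.76 and passed (adjusted p = 0.0389). The scarce Col6a5 had 3 to 60 counts per library, and Col6a4, with 0 to 18 counts, was not tested.

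The remaining chains did not pass. Col23a1, a transmembrane collagen and the next most abundant of the other types by deposited FPKM, ranged from 5.60 to 18.3 CPM per kb in saline and from 11.8 to 20.8 in bleomycin (log2 fold change 0.47 ± 0.30; adjusted p = 0.31 by edgeR). Col18a1 and Col15a1 had log2 fold changes of 0.73 ± 0.42 and -0.07 ± 0.60 (adjusted p = 0.259 and 0.948 by edgeR), and that of Col15a1 was positive under total-count scaling. Col8a1 and Col8a2, which build a hexagonal network under endothelium, were at 0.68 and 0.18. The fibril-associated chains Col12a1, Col16a1 and Col20a1 were at 1.08, 0.44 and 0.27, and Col14a1 and the cartilage chain Col9a3 were at -0.33 and -0.47. Of 8 cartilage markers only Chad and Cytl1 were in the table, and Chad averaged 26.4 and 12.5 CPM per kb in saline and bleomycin. The epithelial hemidesmosome chain Col17a1 was at 0.71, and Col28a1 at 0.79. Col22a1, with 1 to 30 counts per library, was not tested.

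Genes that act on collagens were read from 5 lists of 70 genes in the table. Of these 6 rose and 1 fell, beside 4.63% and 5.7% of all genes. Of 15 basement membrane partners, 5 rose and 0 fell, with a median log2 fold change of 0.66. Among them were Lama3 and Lamb3, laminin chains of epithelial basement membranes, the laminin chain Lamb2, and the heparan sulfate proteoglycan Agrn. Lama3 went from 1.51 ± 0.49 to 4.15 ± 1.138 CPM per kb (2.75-fold; adjusted p = 0.0067 by edgeR). Lamb3, Agrn and Lamb2 rose 2.31-, 2.03- and 1.86-fold. The summed level of the 15 partners ran from 106 to 166 CPM per kb in saline and from 198 to 279 in bleomycin, without overlap.

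Genes for making and finishing collagen did not pass. Of 22 biosynthesis genes, among them prolyl and lysyl hydroxylases and the collagen chaperone Serpinh1, 0 rose and 0 fell, with log2 fold changes from -0.34 to 0.87 and a median of 0.06. P4hb, the most abundant by FPKM, averaged 242 ± 31.2 and 224 ± 18.2 CPM per kb (adjusted p = 0.644 by edgeR). Of 13 genes for procollagen processing and crosslinking, 0 passed (median 0.47), with Loxl1, a lysyl oxidase, at 19.1 ± 10.7 and 25.1 ± 12.3 CPM per kb. Of 10 fibril regulators, 0 passed (median -0.12), with Sparc at 428 ± 186 and 559 ± 187 CPM per kb. Of 10 collagen receptors, the adhesion receptor gene Adgrg1 rose 1.71-fold (adjusted p = 0.013 by edgeR) and Lair1, an inhibitory receptor of leukocytes, fell from 8.38 ± 8.69 to 1.10 ± 0.59 CPM per kb (adjusted p = 0.0291 by edgeR). Lair1 was at 22.2 and 16.4 CPM per kb in saline 2 and 3, and the rest of the saline group held 1.72 to 4.55.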

How the data were processed

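For each library the deposited table holds, by gene, the authors' count of reads and their FPKM. The deposited counts are whole numbers, not normalized. HISAT2 2.2.1, HTSeq 2.0.2, FastQC and build GRCm39 are named in the submitters' processing notes, with no role. Neither annotation nor strand setting is stated in those sources, so reads of overlapping antisense genes cannot be told apart. The deposited FPKM values divide by a gene length that, for 34 of the 36 collagen genes, lay within 1% of the summed lengths of all the gene's GENCODE M21 transcripts (1.08 to 6.97 times the longest). Levels were therefore recomputed as CPM per kb of the longest M21 transcript (GRCm38, used for lengths, GC content and promoters only). The members, lists and ratios were chosen with earlier results of these data known.

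Counts were tested with edgeR 4.0.16 in R 4.3.3 (filterByExpr with a count minimum of 10, TMM, two-sided quasi-likelihood test, Benjamini-Hochberg over 14478 genes, threshold 0.05), after checks on simulated data. The SE is the absolute log2 fold change over the square root of F. Chain ratios were tested by exact permutation. Alternatives were median-ratio and total-count scaling, no filter, DESeq2 1.42.0, limma 3.58.1 on log2(FPKM + 1), a replicate block, each library left out, saline pairs left out, and, added after seeing the data, corrections for GC content and transcript length (lowess, span 0.3). For ratios, counts with 0.5 added and a rank-sum test were tried. Named genes are the collagen genes past the threshold, the 2 highest by mean FPKM per class, both chains of ratios past the threshold, and in each pathway list those past the threshold and the highest by FPKM; other collagen genes are given by their values in brief. Of the pathway genes past the threshold, 1 is not reported here by name. The labels do not say that libraries came from separate animals, so the p-values reflect only how much these libraries vary, which may be technical. No 2 libraries agreed within sampling noise (lowest chi-square per degree of freedom 17.4, saline 1 and 4).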

Additional observations from a re-analysis of the deposited data

Results flagged for a closer look

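Levels of the 34 chains tested and the 4 ratios past the threshold were checked, in each group, for a library far from the rest (76 groups), and 5 were found, where chance gives about 1 in 20 groups. Col4a4 stood at 12.9 CPM per kb in saline 6, against 3.58 to 5.79 in the other saline libraries. Col6a5 stood at 0.452 CPM per kb in saline 2, against 0.033 to 0.154 in the other saline libraries, and at 0.0243 in bleomycin 1, against 0.0784 to 0.0979 in the other bleomycin libraries. These rest on 60 and 3 counts. Col8a1 stood at 1.55 CPM per kb in bleomycin 3, against 2.79 to 2.94 in the other bleomycin libraries. Col15a1 stood at 7.503 CPM per kb in saline 2, against 1.53 to 3.42 in the other saline libraries.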

How the results depend on the processing

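Of the collagen genes, 6 rose and 0 fell. With a replicate block (saline 6 dropped) 3 rose, Col7a1 and 2 type IV chains, Col4a3 among them, and the call of Col26a1 was lost. Without saline 1 and 4 and with the GC correction 3 rose as well, Col4a2, Col4a3 and Col26a1 in each. Col4a2 and Col26a1 each passed in 20 of the 21 alternative fits. Without saline 2 and 3, 13 rose. Leaving out 1 library gave 3 to 7 rises and 0 falls, with 3 without bleomycin 2, 4 or 5. DESeq2 gave 1 fall, of Col24a1, and 8 rises. The replicate numbers did not pair the libraries (correlations of deviations from -0.189 to 0.014). Of the pathway genes, 6 rose and 1 fell, against 14 rises and 2 falls without saline 2 and 3. With DESeq2 and with the GC correction 2 fell, and with limma and with the replicate block 0 fell. Among all genes, 9.22% rose without saline 2 and 3, and 1443 of 14477 fell. With DESeq2 and the GC correction 1615 of 14478 and 592 of 14458 genes fell. With limma and the replicate block 346 of 14478 and 241 of 14396 fell. Of the 15 ratios, 4 passed, against 2 by the exact rank-sum test. With the replicate block 0 passed, where sign flips of 5 pairs cannot give a p below 0.0625. Without saline 1 and 4, 0 passed, and 0 to 4 passed when 1 library was left out. Without saline 1 and 4, Col4a5/Col4a3 and Col4a4/Col4a3 both had an exact permutation p of 0.00794 (adjusted p = 0.0595). The same values came without saline 1, 2, 3 or 4 alone. This is the smallest p the test can give in those fits, so not passing there does not show a weaker difference. The log2 differences of Col4a5/Col4a3 and Col4a4/Col4a3 were -2.24 to -1.84 and -0.97 to -0.81 with 1 library left out, and -1.79 and -0.79 without saline 1 and 4. Signs reversed for chains that did not pass. Col3a1 was at 0.69 without saline 2 and 3. Col1a1 was at 0.18 with limma, 1.66 without saline 2 and 3, and -1.004 to 0.28 leaving out 1 library. Col4a5 was at 0.11 with total counts, 0.057 with limma, 0.027 without saline 1 and 4, and -0.21 to 0.052 leaving out 1 library. Col15a1 was at 0.094, 0.046 and 0.69 with total counts, with limma and without saline 2 and 3, and -0.40 to 0.44 leaving out 1 library. Total-count scaling moved the median of all genes from -0.04 to 0.14 and that of the collagen genes from 0.47 to 0.66. The cause of these shifts was not tested.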

Other observations

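Bleomycin 1 had the lowest level of all libraries for 12 of the 36 collagen genes, 4 of them fibrillar, and the following values were chosen after they were seen. Beside Col6a3 at 0.515 CPM per kb, it held 0.277 of Col15a1, 1.71 of Col18a1 and 1.11 of Col14a1, against 1.53, 2.70 and 2.44 or more in every other library. The collagen chaperone gene Serpinh1 stood at 35.2 CPM per kb there and at 95.2 to 177 in the other 10 libraries. The ratio of Col5a1 to Col1a1 was 0.9996 in bleomycin 1 and 0.113 to 0.305 in the other libraries. In the opposite direction, bleomycin 1 had the highest Col4a4, Col11a2 and Col23a1, and Lox, which encodes a crosslinking enzyme of collagen and elastin, stood at 116 CPM per kb against 9.56 to 46.4 elsewhere. The fibroblast markers were mixed. Bleomycin 1 was the lowest bleomycin library for 3 of the 8, Tcf21, Dpt and Wnt2, at 12.3, 29.9 and 2.54 CPM per kb, and the highest for Ces1d, at 718 against 295 to 599. The 7 other than Ces1d summed to 150.5 CPM per kb there and to 169.7 to 324 in the other bleomycin libraries.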
